A study of Mus musculus with 8 samples.

Results

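Fragments of isoleucine and valine tRNAs were counted in pancreatic β-cells from wild type and from db/db mice. A tRNA-derived fragment (tRF) is a small RNA cut from a transfer RNA, and each distinct RNA sequence had its own count of molecules. All sequences named for an isoleucine (Ile) or valine (Val) tRNA were taken, together with the 3 sequences named mmu-mir-1983, a microRNA name. This gave 117 of the 2226 sequences, all of 16 to 30 nt: 34 of Val-AAC, 28 of Ile-TAT, 27 of Val-TAC, 24 of Ile-AAT, 3 of mmu-mir-1983 and 1 of Val-CAC. The letters after the amino acid are the anticodon, written as DNA. The choice used names alone and no measured value, though earlier results of these data were known when it was made.

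The β-cells were sorted by flow cytometry from islets of male mice aged 8 weeks. The db/db mice lack a working leptin receptor and become obese and hyperglycaemic, and the mice of both genotypes had a BKS.Cg background. There were 4 libraries per genotype, each made from islets of several animals pooled, and the values were of tRFs only, so that the labelled cell type could not be checked against marker transcripts. The leptin receptor defect, obesity and hyperglycaemia came together in the db/db animals and cannot be told apart.

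A tRNA is read from its 5′ end through the D arm, the anticodon arm and the T arm to a 3′ end at which a dedicated enzyme adds the bases CCA, the site where the amino acid is attached. This tail is not encoded in mammalian tRNA genes, so a fragment that ends in CCA stems from a tRNA whose 3′ end had been processed. Several nucleases can trim the tail, and the same enzyme can rebuild it. Fragments from the 5′ end, from the 3′ end and from the inside of a tRNA are formed by different cuts and are described apart here. Some tRNA genes, among them that of Ile-TAT in the mouse, contain an intron that is removed from the transcript.

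Each sequence was placed in 1 of 4 classes. A complete 3′ end stopped at CCA (59 sequences), and a short 3′ end stopped 1 to 3 bases before the end of a complete one of the same name (9 sequences). The 5′ class (29 sequences) held those that began like the most abundant start of their tRNA, and the remaining 20 were internal. The pairs below show the 3′ ends on which the results turn, written 5′ to 3′ as DNA, with the part of the CCA tail that is present in capitals.
Ile-AAT complete, 17 nt: ccccgtacgggccaCCA
Ile-AAT short, 16 nt: ccccgtacgggccaCC
Ile-TAT complete, 17 nt: cctcacctggagcaCCA
Ile-TAT short, 16 nt: cctcacctggagcaCC
Ile-TAT complete, 27 nt: tgagttcgagcctcacctggagcaCCA
Ile-TAT short, 25 nt: tgagttcgagcctcacctggagcaC
mmu-mir-1983, 24 nt: tgagttcgagcctcacctggagca
Val-TAC complete, 24 nt: gttcgagccccagtggaaccaCCA
Val-TAC short, 22 nt: gttcgagccccagtggaaccaC
Val-TAC internal, 20 nt: gttcgagccccagtggaacc
Val-TAC complete, 27 nt: tgggttcgagccccagtggaaccaCCA
Val-TAC short, 25 nt: tgggttcgagccccagtggaaccaC

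The short ends differed from their complete partner in length alone. Of the 9 short ends, the pair of 16 nt lacked 1 base and ended in CC, and the other 7 lacked 2 bases and ended in a single C.

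The libraries held 582165 to 2946290 tRF counts, the most in db/db 3, and isoleucine and valine fragments made up 1.03% to 2.18% of them, the largest share being that of wild type 2. Levels are given as counts per 1000000 tRF counts after TMM scaling (CPM), as mean ± SD over the 4 libraries of a genotype, and fold changes as log2 of db/db over wild type ± standard error (SE). On this scale 3 counts, the limit that a count of 0 allows, corresponded to between 1.25 CPM in db/db 3 and 5.42 CPM in db/db 2. A level is relative to all tRFs of a bulk library, so that fewer cells with a fragment and less of it per cell cannot be told apart. No batch is named in the labels.

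Of the 117 sequences, 92 had enough counts for the test, and 7 of these changed more than 2-fold in edgeR's quasi-likelihood test at an adjusted p below 0.1, 1 higher and 6 lower in db/db β-cells. Of all tested sequences 15% passed the same rule, 5.57% higher and 9.44% lower. In 6 of the 92 the genotypes had separate ranges, which was so in 17.1% of all tested sequences. Short 3′ ends accounted for 5 of the 6 decreases. The median log2 fold change was −0.31 over the 92 sequences and 0.00 over the whole table.

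**Figure D1:**
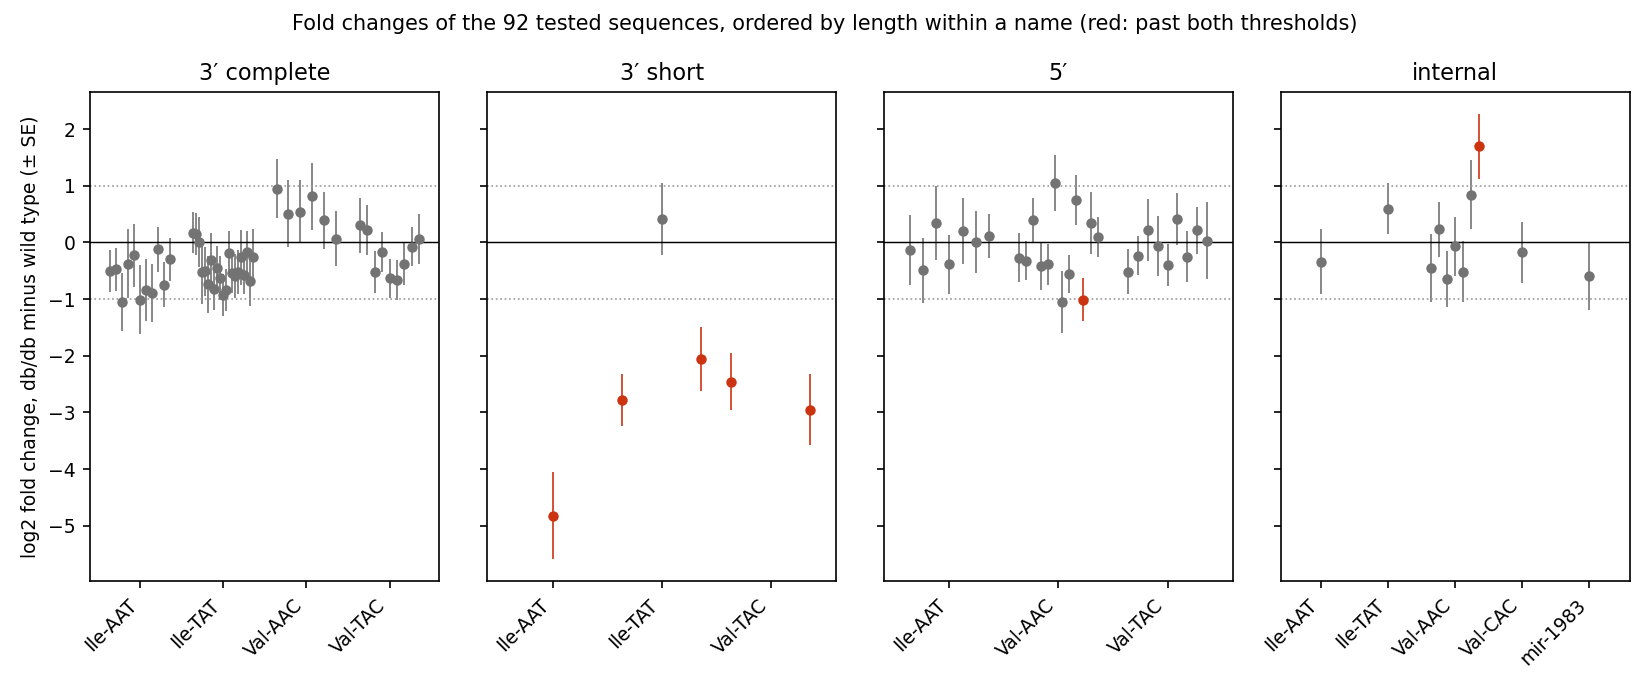
The plot shows the log2 fold change of each tested sequence (db/db minus wild type, error bars ± SE) in 4 panels, for complete 3′ ends, short 3′ ends, 5′ and internal fragments, ordered by length within a name, with dotted lines at a 2-fold change and red points for sequences past both thresholds. The 5 red points among the short ends lie between −4.82 and −2.06, whereas all 47 complete ends lie between −1.05 and 0.95.

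When the counts were summed over a name and a class, the 117 sequences formed 16 families, of which 15 were tested. The short 3′ ends of Ile-AAT, Ile-TAT and Val-TAC fell in db/db β-cells, and the other 12 families did not pass the test. Among all 130 tested families 20% passed, 17.7% lower and 2.31% higher. By their mean over all 8 libraries the most abundant families were the complete 3′ ends of Ile-TAT at 5211 CPM and of Val-TAC at 3517 CPM, followed by the 5′ fragments of Val-AAC at 2210 CPM. In each genotype the ranges of the first pair overlapped, as did those of Val-TAC 3′ ends and Val-AAC 5′ fragments in wild type. The complete 3′ ends of Ile-AAT (937 CPM) and the 5′ fragments of Val-TAC (737 CPM) came next and overlapped in both genotypes, and all other families were below 220 CPM.

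**Figure D2:**
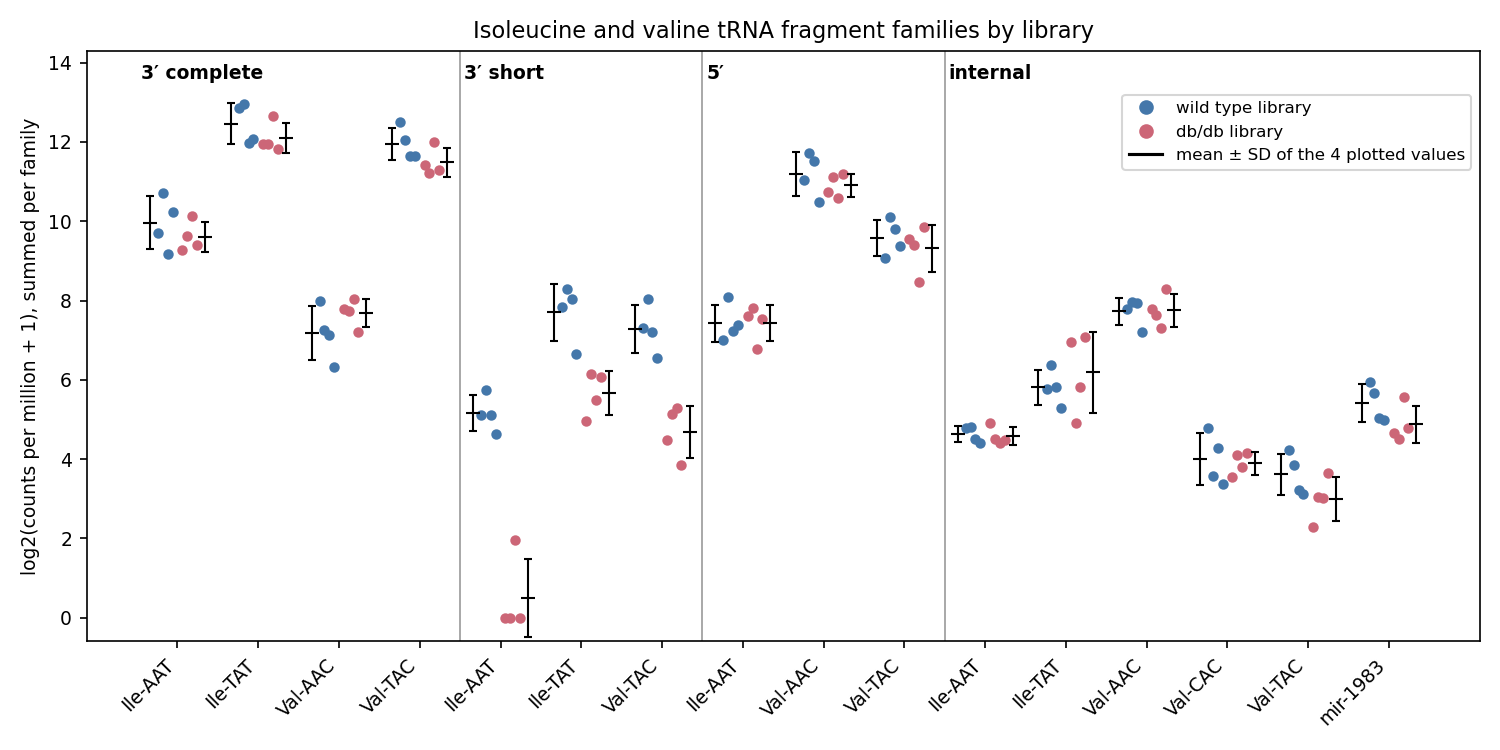
The plot shows log2 of CPM + 1 for each of the 16 families, with 1 point per library (wild type blue, db/db red) and the mean ± SD of the 4 plotted values in black, grouped by class. The genotypes are separate only in the 3 families of short 3′ ends (21.5% of all tested families were separate), where the Ile-AAT family is at 0 in 3 of the 4 db/db libraries.

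Isoleucine 3′ ends were dominated by Ile-TAT. Its complete family of 23 sequences was at 7388, 7932, 4034 and 4315 CPM in wild type 1 to 4 and at 3938, 3974, 6487 and 3617 CPM in db/db 1 to 4. The db/db 3 library was above wild type 3 and 4, the genotypes overlapped, and the fold change of −0.39 ± 0.31 did not pass the test (edgeR, adjusted p = 0.460). Its most abundant sequence was the 27-nt end printed above, at 2697, 2442, 1197 and 1294 CPM in wild type and 1142, 1269, 1762 and 1073 CPM in db/db (log2 fold change −0.54 ± 0.36, edgeR, adjusted p = 0.426). Both groups of libraries overlapped here too.

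The Ile-AAT complete family (14 sequences) was lower in level than the Ile-TAT one in every library, at 833, 1683, 576 and 1211 CPM in wild type and 614, 783, 1120 and 673 CPM in db/db. It gave a fold change of −0.43 ± 0.35 (edgeR, adjusted p = 0.464). Its most abundant sequence, cgcgggttcgatccccgtacgggccaCCA (29 nt), was at 199, 371, 139 and 359 CPM in wild type and 140, 197, 337 and 197 CPM in db/db, which overlapped (log2 fold change −0.29 ± 0.38, edgeR, adjusted p = 0.711). All 11 tested complete ends of Ile-AAT had a value below 0, between −1.05 and −0.12, but none was called.

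For valine, the complete 3′ ends of Val-TAC (13 sequences) were at 5754, 4256, 3174 and 3212 CPM in wild type and 2754, 2372, 4106 and 2508 CPM in db/db. Again db/db 3 lay above wild type 3 and 4, and the fold change was −0.48 ± 0.30 (edgeR, adjusted p = 0.350). The 24-nt end made up most of the family, at 3879, 2398, 2057 and 1834 CPM in wild type and 1411, 1401, 2303 and 1322 CPM in db/db (log2 fold change −0.66 ± 0.35, edgeR, adjusted p = 0.285). Those groups overlapped through db/db 3 alone.

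The Val-AAC complete ends (9 sequences) were at a much lower level and had the opposite sign, 251, 153, 139 and 79.5 CPM in wild type and 220, 211, 261 and 146 CPM in db/db (log2 fold change 0.44 ± 0.35, edgeR, adjusted p = 0.457). The libraries of both genotypes overlapped. All 6 tested sequences had a value above 0, up to 0.95, and none was called. The most abundant, gttcgaaaccgggcgggaacaCCA (24 nt), was at 76.5, 50.1, 40.3 and 13.1 CPM in wild type and 58.9, 34.3, 61.1 and 29.3 CPM in db/db (0.07 ± 0.49, edgeR, adjusted p = 0.954).

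Complete 3′ ends came in lengths that differed between the tRNAs. In Ile-TAT, 24- to 27-nt ends held 61.2% ± 5.58 of the complete counts in wild type and 54.0% ± 3.54 in db/db, and 16- to 18-nt ends held 22.9% ± 5.97 and 31.3% ± 4.52 (SD, n = 4). In Val-TAC the 24- to 27-nt ends held 80.1% ± 1.21 and 78.1% ± 1.05, and those of 16 to 18 nt only 1.68% ± 0.577 and 2.49% ± 0.573. In Ile-AAT the counts were spread over both ends of the range, with 35.7% ± 5.72 and 33.1% ± 4.61 at 16 to 18 nt and 35.4% ± 5.73 and 35.6% ± 4.004 at 28 to 30 nt. In Val-AAC no complete end was longer than 24 nt. The length ranges were chosen after the values had been seen and were not tested, and the genotypes overlapped in every one of them.

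**Figure D3:**
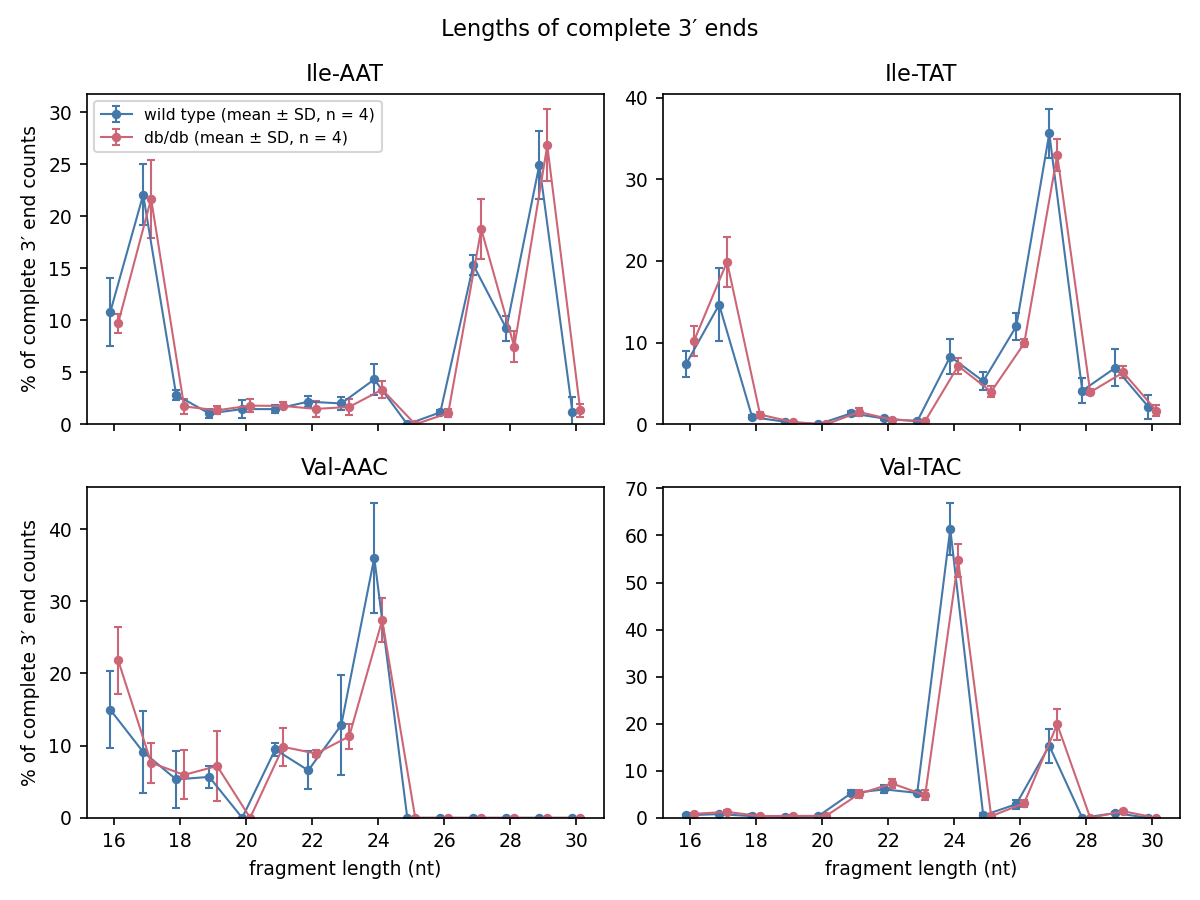
The plot shows the share of complete 3′ end counts at each length from 16 to 30 nt, in percent, as mean ± SD of 4 libraries per genotype, with a panel each for Ile-AAT, Ile-TAT, Val-AAC and Val-TAC. Ile-TAT peaks at 27 and 17 nt, Ile-AAT at 29 and 17 nt and both valine tRNAs at 24 nt, in wild type (blue) and db/db (red) alike.

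The short 3′ ends showed the largest differences. The single short end of Ile-AAT (16 nt) was at 33.8, 52.8, 33.6 and 23.9 CPM in wild type 1 to 4, that is 19, 39, 20 and 31 counts. In db/db it had 7 counts in db/db 3, or 2.91 CPM, and 0 in db/db 1, 2 and 4. The genotypes did not overlap, and the log2 fold change was −4.82 ± 0.77 (edgeR, adjusted p = 8.04e-05). As a family, adjusted over families, it gave −4.74 ± 0.70 (edgeR, adjusted p = 5.53e-05). This fragment, and thus its family, passed the filter on low counts through the wild type libraries alone, so it had to differ. The fitted value rests on 7 db/db counts and ranged between −7.90 and −4.36 over the other settings tried.

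The Ile-TAT short family (4 sequences) was at 226, 310, 262 and 99.6 CPM in wild type and 29.9, 70.4, 43.7 and 66.6 CPM in db/db, without overlap (log2 fold change −2.10 ± 0.39, edgeR, adjusted p = 0.000484). Among its tested sequences the largest fall was that of the 16-nt end, from 155, 164, 190 and 50.2 CPM in wild type to 12.6, 21.7, 22.04 and 23.98 CPM in db/db (−2.78 ± 0.45, edgeR, adjusted p = 0.000101). All 4 wild type libraries were above all db/db libraries.

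The 25-nt short end of Ile-TAT was at 35.6, 108, 28.6 and 31.7 CPM in wild type and 3.86, 18.05, 13.3 and 14.2 CPM in db/db (−2.06 ± 0.57, edgeR, adjusted p = 0.0135). Wild type 2 stood far above the others, and without it the fold change was −1.40 with an adjusted p of 0.1295 (edgeR), so that this call rested on that library. The 19-nt end cgagcctcacctggagcaC did not share the direction, at 17.8, 8.12, 18.5 and 7.72 CPM in wild type and 9.66, 28.9, 4.57 and 27.5 CPM in db/db (0.42 ± 0.63, edgeR, adjusted p = 0.752). It was the only tested short end of these tRNAs that was not called, and it is named here after its values had been seen.

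In Val-TAC the short family (4 sequences) was at 157, 260, 148 and 93.4 CPM in wild type and 21.3, 34.3, 37.8 and 13.3 CPM in db/db (−2.61 ± 0.42, edgeR, adjusted p = 9.87e-05). The 22-nt end was at 81.8, 156, 80.6 and 48.7 CPM in wild type and 16.4, 25.3, 21.2 and 4.44 CPM in db/db (−2.45 ± 0.51, edgeR, adjusted p = 0.00108). The 25-nt end was at 24.9, 51.4, 15.1 and 26.3 CPM in wild type and 0.966, 1.80, 5.41 and 5.33 CPM in db/db (−2.95 ± 0.63, edgeR, adjusted p = 0.00131). Neither the family nor these ends overlapped between the genotypes, and the 25-nt end passed the filter through wild type alone.

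Short ends fell throughout the table, so that the decreases of isoleucine and valine ends were not particular to them. Of all 168 tested short ends 85.7% were called lower, and the median over them was −3.04 on the log2 scale, and of the 6 tested here 5 were lower, with a median of −2.62. Of these 5, the Ile-AAT end and the 25-nt Val-TAC end passed the filter through wild type alone, so they had to differ. Of all 24 tested short families 91.7% were called lower. Of the complete ends 0.447% were called lower and 7.61% higher over the whole table, and 0 of 47 in either direction here, where 3 had an unadjusted p below 0.05 (edgeR); DESeq2 likewise called 0 of them. Without wild type 3 the 25-nt complete end of Ile-TAT was called (−1.07), and without wild type 4 its 26-nt one (−1.02). No short end of Val-AAC or Val-CAC was listed, and Val-CAC had no complete end by which to class one. All 117 sequences had at least 65 counts in total, so rarer ends may have gone unlisted.

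A ratio within a library does not depend on the scaling between libraries. Of the 3′ counts of Ile-AAT, 3.90%, 3.04%, 5.51% and 1.94% were short in wild type 1 to 4, and 0%, 0%, 0.259% and 0% in db/db 1 to 4. For Ile-TAT the shares were 2.97%, 3.76%, 6.10% and 2.26% in wild type and 0.755%, 1.74%, 0.669% and 1.81% in db/db. For Val-TAC they were 2.65%, 5.76%, 4.45% and 2.83% in wild type and 0.766%, 1.43%, 0.913% and 0.528% in db/db. In each of these tRNAs every wild type library was above every db/db library, at the smallest p that 4 against 4 libraries allow (two-sided exact permutation test, p = 0.0286, adjusted p = 0.0323 over the 26 names with both kinds of end). The same separation was found in 88.5% of these 26 names, and all 26 had a lower mean share in db/db, so that it was not particular to isoleucine and valine tRNAs. The Ile-AAT share rests on its single short end, which passed the filter on low counts through wild type alone. Its separation is thus no further support.

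The mean share was 4.32 times higher in wild type for Val-TAC and 3.03 times for Ile-TAT, beside a median of 7.70 over the 26 names. For Ile-AAT no exact ratio can be given, since 3 of the 4 db/db libraries were at 0 counts. With these 3 set to the limit of 3 counts and the other libraries as observed, the mean share was 7.95-fold higher in wild type. The median over the 26 names was taken without such a limit. The wild type means themselves were close together, at 3.60% ± 1.51 for Ile-AAT, 3.77% ± 1.67 for Ile-TAT and 3.92% ± 1.47 for Val-TAC, whereas in db/db they were 0.0648% ± 0.130, 1.24% ± 0.615 and 0.908% ± 0.380 (SD, n = 4). Differences between the tRNAs were not tested.

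**Figure D4:**
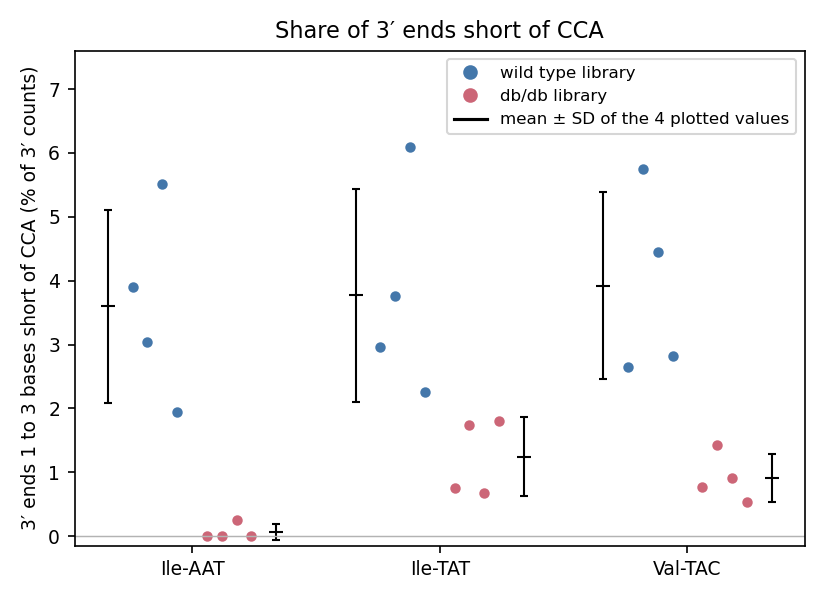
The plot shows the share of 3′ end counts that stop 1 to 3 bases short of CCA, in percent, for each library (wild type blue, db/db red) with mean ± SD in black, for Ile-AAT, Ile-TAT and Val-TAC. The lowest wild type library lies above the highest db/db library in each tRNA, at 1.94% against 0.259%, 2.26% against 1.81% and 2.65% against 1.43%, as was so in 88.5% of the 26 names with both kinds of end. The Ile-AAT share rests on a single short end that passed the filter through wild type alone.

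Short ends could also be set beside the complete end with the same start, as in the printed pairs. Of the counts of each pair that lacked 1 base, 14.2% ± 4.91 were short in wild type and 0.324% ± 0.647 in db/db for Ile-AAT, and 14.1% ± 4.91 and 2.32% ± 0.840 for Ile-TAT (SD, n = 4). Neither overlapped, which was so in 98.6% of the 72 such pairs of all names. The Ile-AAT pair holds the short end that passed the filter through wild type alone, so its difference is no further support. Among the 7 pairs that lacked 2 bases the genotypes did not overlap in 5, beside 92.9% of the 56 such pairs of all names. An example is the 24-nt Val-TAC start, of which 3.63% ± 1.79 was short in wild type and 1.04% ± 0.595 in db/db. The 2 pairs with overlap were those of the 25-nt and the 19-nt short ends of Ile-TAT. A further 2 sequences lacked the whole tail. The 24-nt row named mmu-mir-1983 is the 27-nt Ile-TAT end without its 3 last bases, and made up 0.898% ± 0.340 of that pair in wild type and 0.604% ± 0.208 in db/db, with overlap. Of 60 pairs of other names that lacked 3 bases, 43 did not overlap. The 20-nt Val-TAC fragment lacks 4 bases of the 24-nt end, and made up 0.461% ± 0.0702 and 0.489% ± 0.273, again with overlap. These pairs are a description and were not tested.

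Among the 5′ fragments those of Val-AAC were the most abundant, and Ile-TAT had none. The 13 Val-AAC sequences summed to 2103, 3378, 2954 and 1437 CPM in wild type and 1696, 2218, 1545 and 2347 CPM in db/db (−0.34 ± 0.32, edgeR, adjusted p = 0.524). The most abundant was the 23-nt gtttccgtagtgtagtggttatc, at 649, 900, 796 and 418 CPM in wild type and 470, 648, 440 and 656 CPM in db/db (−0.32 ± 0.34, edgeR, adjusted p = 0.647). In neither case were the genotypes apart.

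A single 5′ fragment was called, the 29-nt gtttccgtagtgtagtggttatcacgttc of Val-AAC. It was at 283, 602, 370 and 197 CPM in wild type and 117, 215, 183 and 206 CPM in db/db (−1.01 ± 0.37, edgeR, adjusted p = 0.0877). Wild type 4 was within the db/db range. The call held in 3 of 17 other settings, with fold changes between −1.69 and −0.67 and an adjusted p of up to 0.3934 (edgeR), reached without wild type 2. Without wild type 3 another 5′ fragment was called, in the opposite direction, the 26-nt gtttccgtagtgtagtggttatcaca of Val-AAC, at 1.79 (edgeR, adjusted p = 0.00924) against 1.05 with all libraries (adjusted p = 0.215). Of all tested 5′ fragments 3.73% were called lower and 3.36% higher.

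The Val-AAC 5′ fragments occur in 2 forms that differ at 1 base, both matched by the authors to mature tRNAs without a mismatch. At 28 nt they read as follows, with the differing base in capitals, a G26A change (the more abundant form has G and the other A at position 26, counted from 1 at the 5′ end).
G form: gtttccgtagtgtagtggttatcacGtt
A form: gtttccgtagtgtagtggttatcacAtt
The A form made up 7.52%, 5.02%, 9.91% and 5.47% of the 5′ counts that reach base 26 in wild type 1 to 4. In db/db 1 to 4 it made up 13.8%, 18.7%, 17.99% and 13.5%, all above the highest wild type library. At equal length the genotypes were apart in the pairs of 26 and 28 nt but overlapped in those of 29 nt, with wild type up to 8.33% and db/db down to 7.94%, and of 30 nt. How often such pairs of other tRNAs were apart was not counted. Which tRNA genes give the 2 forms was not checked here. The median log2 fold change was 0.74 over the 3 tested A sequences and −0.56 over the 5 G sequences. This split was noticed in the values, so it is given without a test.

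The same kind of split was seen in Ile-TAT, whose complete ends carry G or T at the 18th base from their 3′ end. The printed 27-nt end has G, and the T form reads as follows.
Ile-TAT G form, 27 nt: tgagttcgaGcctcacctggagcacca
Ile-TAT T form, 27 nt: tgagttcgaTcctcacctggagcacca
Here the change is G10T, by the same count. The T form held 14.1%, 20.8%, 18.5% and 19% of the complete counts that reach this base in wild type and 20.98%, 20.4%, 20.6% and 21.6% in db/db. The ranges overlapped, wild type 1 being the lowest, and at equal length they were apart in 2 of 9 pairs. Such pairs of other tRNAs were not examined, so whether this is usual cannot be said. The Ile-TAT short ends of 19, 24 and 25 nt carry the G, and the 16-nt one does not reach this base.

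The 5′ fragments of Val-TAC (9 sequences) summed to 537, 1095, 897 and 660 CPM in wild type and 752, 675, 355 and 924 CPM in db/db (−0.24 ± 0.34, edgeR, adjusted p = 0.697). Its most abundant, ggttccatagtgtagcggttatc, was also of 23 nt and was at 198, 357, 317 and 174 CPM in wild type and 214, 191, 105 and 282 CPM in db/db (−0.40 ± 0.37, edgeR, adjusted p = 0.588). In both the lowest library was db/db 3 and the highest wild type 2, and the genotypes overlapped.

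Ile-AAT 5′ fragments (7 sequences) were at 128, 272, 149 and 165 CPM in wild type and 195, 222, 109 and 184 CPM in db/db (−0.02 ± 0.32, edgeR, adjusted p = 0.970). The ranges of the genotypes overlapped.

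Of the 20 internal sequences 11 were tested, and 1 was higher. This was the 30-nt Val-AAC fragment ttccgtagtgtagtggttatcacgttcgcc, which begins at base 3 of the Val-AAC 5′ fragments. It was at 12.5, 4.06, 16.8 and 10.04 CPM in wild type and 39.6, 14.4, 25.8 and 57.7 CPM in db/db (1.69 ± 0.57, edgeR, adjusted p = 0.0512). The db/db 2 library was below wild type 3. The call was lost without any one of wild type 2, wild type 4, db/db 1 and db/db 4, and with both scalings to other library totals, in which the fold change was 1.31 to 1.66 and the adjusted p 0.1057 to 0.3318 (edgeR). Of the 502 tested internal fragments of all names 4.98% were called higher and 2.99% lower, and of the internal families 2.7% were lower, beside 0 of the 5 tested here (edgeR, 0 with an unadjusted p below 0.05; 0 by DESeq2).

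The Val-AAC internal family (12 sequences) was at 221, 246, 245 and 147 CPM in wild type and 220, 197, 157 and 314 CPM in db/db (0.05 ± 0.30, edgeR, adjusted p = 0.929). Its most abundant sequence, cgcgaaaggtccccggt, was at 32.0, 20.3, 28.6 and 26.3 CPM in wild type and 37.7, 32.5, 12.9 and 43.5 CPM in db/db (0.23 ± 0.49, edgeR, adjusted p = 0.828). This and 4 other Val-AAC internal sequences are contained in the only Val-CAC fragment, cacacgcgaaaggtccccggt, so their counts cannot be assigned to either tRNA. That Val-CAC fragment was at 26.7, 10.8, 18.5 and 9.27 CPM in wild type and 10.6, 16.2, 12.9 and 16.9 CPM in db/db (−0.18 ± 0.54, edgeR, adjusted p = 0.887).

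The leading one of Ile-AAT, of 29 nt, was at 21.4, 12.2, 11.8 and 15.4 CPM in wild type and 15.5, 1.80, 14.1 and 14.2 CPM in db/db (−0.34 ± 0.58, edgeR, adjusted p = 0.783), with db/db 2 below the rest. The Val-TAC internal fragment printed above, gttcgagccccagtggaacc, was at 17.8, 13.5, 8.40 and 7.72 CPM in wild type and 3.86, 7.22, 7.07 and 11.5 CPM in db/db and had too few counts for the test. The internal fragment named for Ile-TAT, tgtcagtgctaggcgtaagcg, was at 53.4, 81.2, 55.4 and 37.8 CPM in wild type and 123, 28.9, 55.7 and 134 CPM in db/db (0.60 ± 0.45, edgeR, adjusted p = 0.495). It shares no run of more than 6 bases with any other sequence in the table, so its place in the tRNA could not be read from overlaps. It also does not match the Ile-TAT gene described below, as it shares at most 5 bases in a row with the hairpin around that gene. Which tRNA gene gives this fragment was not checked.

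The name mmu-mir-1983 was traced in RefSeq's annotation of GRCm38.p6, the build of the authors' alignment. The Mir1983 hairpin (132 nt, minus strand, chr13:21896918-21897049) contains the whole 94-nt tRNA gene n-TItat14 (chr13:21896938-21897031), the only isoleucine TAT gene listed. The annotated mature miR-1983 (21 nt, chr13:21896930-21896950) spans hairpin bases 100 to 120, so it starts inside the tRNA gene and runs past its end at base 112. It is shown with its seed, bases 2 to 8, in capitals, as RNA, beside the sequences of the table that carry the name and were not yet printed.
mature miR-1983, 21 nt: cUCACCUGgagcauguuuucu
mmu-mir-1983, 29 nt: gcgcaatcggttagcgcgcggtacttata
mmu-mir-1983, 30 nt: ggcgcaatcggttagcgcgcggtacttata

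None of the 3 sequences named mmu-mir-1983 was the mature miR-1983 or held it, and no sequence of the table was part of it. The 29- and 30-nt ones cover hairpin bases 28 to 56 and 27 to 56, which are bases 9 to 38 of the tRNA gene, and the 24-nt one covers bases 89 to 112, the 3′ end of the gene. They were the only 3 sequences of the whole table that lie in the hairpin over their full length. The tRNA part of 17 of the 28 Ile-TAT sequences also lies there, at bases 86 to 112, but each goes on into the CCA tail, which the hairpin does not hold. Thus the microRNA name was carried by those sequences that match the Ile-TAT gene without any CCA base.

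**Figure D5:**
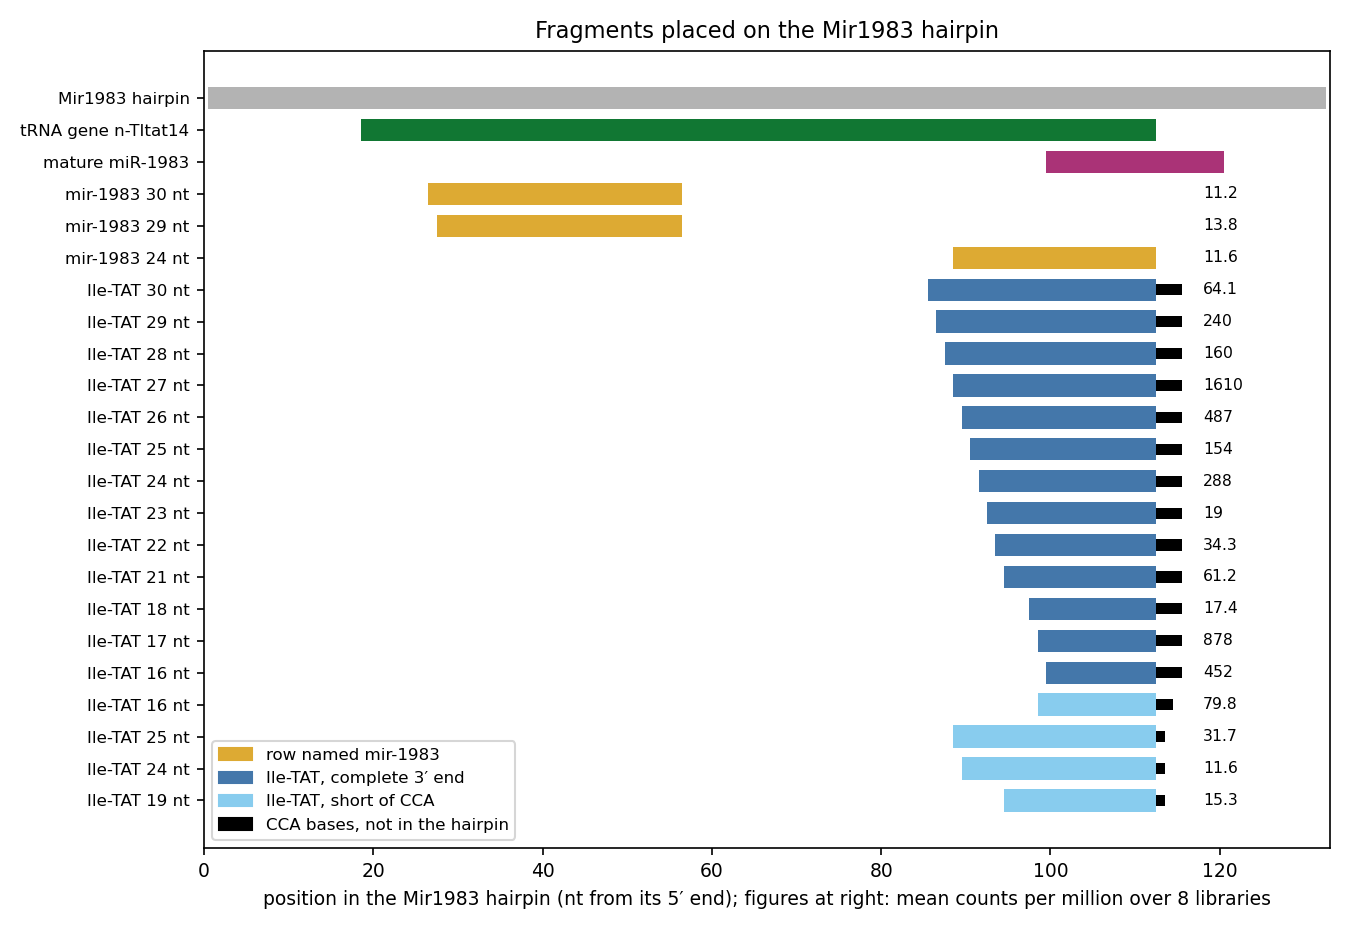
The map shows, against the position in the Mir1983 hairpin in nt from its 5′ end, the hairpin (grey), the tRNA gene (green), the mature miR-1983 (purple), the 3 sequences named mmu-mir-1983 (yellow) and the 17 Ile-TAT sequences that match the hairpin (blue), with CCA bases in black and the mean CPM over 8 libraries at the right. The Ile-TAT ends and the 24-nt row stop at base 112, where the tRNA gene ends, whereas the mature miR-1983 runs on to base 120.

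In level the mmu-mir-1983 sequences were far below the Ile-TAT 3′ ends, and their sum was 60.5, 50.1, 31.9 and 30.9 CPM in wild type and 24.1, 21.7, 46.2 and 26.6 CPM in db/db (−0.50 ± 0.39, edgeR, adjusted p = 0.457). The 29-nt sequence was at 33.8, 16.2, 10.1 and 8.50 CPM in wild type and 7.73, 3.61, 17.1 and 13.3 CPM in db/db (−0.59 ± 0.60, edgeR, adjusted p = 0.630). The 30-nt and 24-nt sequences were not tested, for want of counts. The first was at 14.2, 13.5, 6.72 and 8.50 CPM in wild type and 6.76, 9.02, 22.5 and 7.99 CPM in db/db, with db/db 3 the highest. The second was at 12.5, 20.3, 15.1 and 13.9 CPM in wild type and 9.66, 9.02, 6.65 and 5.33 CPM in db/db, without overlap.

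RefSeq's table for GRCm38.p6 lists 38 isoleucine and valine tRNA genes, namely 15 for Ile-AAT, 1 for Ile-TAT, 8 for Val-AAC, 11 for Val-CAC and 3 for Val-TAC. Of the 15 Ile-AAT genes, 3 are longer than the rest, at 93, 95 and 96 nt. The T form of the Ile-TAT ends does not match the 1 Ile-TAT gene listed. It shares at most 14 bases in a row with the hairpin that holds this gene. Of these, 18 lie on chromosome 13 between positions 21855320 and 23446214, the region of the Mir1983 hairpin, and none of the 18 is a Val-TAC gene. The Val-TAC genes are at chr19:12011931-12012003, chr19:12012266-12012338 and chrX:160766110-160766182. A fragment that matches several genes of a tRNA cannot be assigned to 1 of them.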

How the data were processed

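The members and the classes were chosen with earlier results of these data known. Per the study's methods, the authors pooled islets of male mice for each preparation, sorted the β-cells, made QIAseq libraries with molecular identifiers and collapsed reads longer than 16 nt. The authors aligned them to GRCm38.p6 and matched them without mismatches to mature tRNAs. The authors' deposited counts are molecules per sequence, without normalisation, and were the basis of every test. The deposited score column is the authors' rounded RPM and the deposited log2 column their normalised value, made by a method not given in the sources used here. Both served only to derive alternative library sizes. The deposited columns on the direction of change were not used.

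Classes were read from the sequences. A short end overlapped a complete one by at least 12 bases. A 5′ start was the set of sequences sharing 8 first bases, 5 or more in number, that had the highest counts. All 2226 sequences, or their sums by name and class, were fitted with edgeR 4.0.16 in R 4.3.3 (TMM, filterByExpr with counts of 10 and 15, quasi-likelihood test, genotype only), with Benjamini-Hochberg adjustment over all tested. SE was taken as the size of the fold change (log2) over the root of its F statistic. Shares were compared over all 70 assignments of the libraries. The procedures were tested on simulated data. The text names each family, its most abundant sequence, its called sequences with the largest rise and fall, the ends sharing the start of the most abundant 3′ end, and each mmu-mir-1983 sequence; a fragment that this rule takes, and an allele, are not reported here. Fragments of other tRNAs entered as counts and medians only. Pooled preparations were the replicates, so SD and SE include the spread between them, whereas the limit of 3 counts covers counting error only. Alternatives were RLE or no factors, 2 other library totals, DESeq2 1.42.0, a likelihood-ratio test, no filter or 10 counts in 4 libraries, a term for library names A to D against F to I, 3 classes, other thresholds, and leaving out each library.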

Additional observations from a re-analysis of the deposited data

Results flagged for a closer look

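Of 80 groups of 4 libraries (16 families, 21 named fragments and 3 shares, in each genotype), 9 had a library far from the other 3, where chance gives about 1 in 20. In 6 of them this was db/db 3, the deepest library. For 3 of these 6 this was 1 value, the 7 counts of the short Ile-AAT end (2.91 CPM as family and as fragment, a short share of 0.259%). The other 3 db/db libraries were at 0, so that any count would have stood apart, and these 0s allow up to 2.90, 5.42 and 2.66 CPM. The complete 3′ ends of Ile-TAT reached 6487 CPM in db/db 3 but at most 3974 CPM in the other db/db libraries, and the 24-nt complete end of Val-TAC at 2303 CPM against at most 1411 CPM. The 30-nt mmu-mir-1983 sequence reached 22.5 CPM in db/db 3 but at most 9.02 CPM in the others.

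In wild type 2 the 25-nt short end of Ile-TAT was at 108.3 CPM, against 28.6 to 35.6 CPM in wild type 1, 3 and 4. The internal Ile-AAT family reached 28.98 CPM in db/db 1, against 20.4 to 21.7 CPM in the others. Its 29-nt fragment was at 1.80 CPM in db/db 2, against 14.1 to 15.5 CPM. Whether depth, or a difference between pooled animals, moved with these libraries was not tested.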

How the results depend on the processing

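The 3 short families were called lower in all 17 other fits, which says little for that of Ile-AAT, since it passed the filter through wild type alone. The log2 fold changes were −7.90 to −4.28 for Ile-AAT, −2.77 to −1.91 for Ile-TAT and −3.09 to −2.27 for Val-TAC. The number of called sequences was 5 to 10 over all settings and that of called families 3 in each, with edgeR or DESeq2. With an adjusted p below 0.05 the 5 short ends alone were called. The share of short ends differed by −3.53, −2.53 and −3.01 percentage points (Ile-AAT, Ile-TAT, Val-TAC) and by −4.61, −3.63 and −7.47 without the most abundant complete sequence, and its adjusted exact p was 0.0312 with tested sequences only. For Ile-AAT that p says little, since its only short end passed the filter through wild type alone. Leaving out single libraries gave −4.09 to −2.90, −3.03 to −1.75 and −3.44 to −2.40. With 3 classes, short ends counted as internal, so the 3 families called there were not the short ones. The internal families became lower, at −1.32 for Ile-AAT and, with the sign reversed, −1.02 for Ile-TAT. Both were called (edgeR, adjusted p = 0.00944 and 0.0480). The median of all sequences moved from 0.00 to 0.14 without a factor, to −0.36 when scaled to implied totals and to −0.51 when scaled to the sizes behind the log2 values.

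Signs turned only in families and fragments that were not called with the main settings. Of these, the Ile-TAT internal family was called, with its sign reversed, with 3 classes. Without a factor, without a filter and with 10 counts in 4 libraries, Ile-AAT 5′ was 0.11, 0.0225 and 0.0283 and Ile-AAT internal 0.11, 0.0162 and 0.01996. With implied totals and with the sizes behind the log2 values, Val-AAC internal was −0.40 and −0.66, its 17-nt fragment −0.20 and −0.52 and the 24-nt Val-AAC 3′ end −0.25 and −0.37, and the Ile-TAT internal family and fragment were −0.28 and −0.29 in the latter. Leaving out single libraries gave −0.13 to 0.22 for Ile-AAT 5′, −0.16 to 0.0848 for Ile-AAT internal (29 nt, −0.47 to 0.038), −0.0942 to 0.24 for Val-AAC internal, −0.25 to 0.51 for the Val-AAC 24-nt end, −0.385 to 0.22 for the Val-CAC family (fragment, −0.39 to 0.21), −0.36 to 0.0181 for Val-TAC 5′ and −0.88 to 0.00604 for the 29-nt mmu-mir-1983 sequence. The cause was not tested. No paired analysis was possible because no replicate numbers stand in the labels, and the numbers used here are names. The filter on low counts left 25 of the 117 sequences untested. Without it 4 of these were called, the short ends of 21 and 20 nt of Val-TAC (−2.71 and −2.19) and of 24 nt of Ile-TAT (−2.74), and a 30-nt Val-AAC internal fragment that begins with tcc (1.65), at adjusted p of 0.0025, 0.0315, 0.00235 and 0.0583 (edgeR).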
